A study of Mus musculus with 9 samples.

Results

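T2M (type 2 myeloid) cells were set against neutrophil-labelled cells from the same inflamed lungs, on 5 of the 9 arrays of the series. The members were chosen by sample title alone: 3 arrays titled T2M cells and 2 titled Neutrophils, with the 4 eosinophil- and macrophage-labelled arrays brought in for the spread and for reference levels. Every array came from female BALB/c 4get mice aged 6 to 8 weeks, in which a green fluorescent reporter marks cells that transcribe Il4, the gene of interleukin 4. All of the mice had IL-25 instilled into the trachea, 0.5 µg in 50 µL a day for 4 days, so that no group was free of the treatment. The T2M gate took IL-4/GFP+, IL-5 receptor alpha-negative, MHC class II-low, CD11b+, Gr-1-mid cells that carried the macrophage antigen encoded by Adgre1. The neutrophil gate took IL-4/GFP-, IL-5 receptor alpha-negative, MHC class II-low, CD11b+, Gr-1+ cells without that antigen. Each array held RNA of 400000 sorted cells from a pool of 4 donor mice, enriched for CD11b before sorting and amplified from 50 ng, so that, where replicates are separate pools as labelled, the p-values measure the spread between pools. Arrays are given in the order of their replicate number throughout. The 2 neutrophil-labelled arrays, which differed from each other, are always given separately before any mean.

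Neutrophils and eosinophils are granulocytes that store their proteins in distinct granules. Neutrophils carry myeloperoxidase, elastase, lactoferrin and gelatinase and the S100A8 and S100A9 proteins, while eosinophils carry major basic protein and eosinophil peroxidase and depend on IL-5 and, for their development, on the transcription factor GATA1. Macrophages are marked by the Adgre1 antigen and by CD68, and in type 2 inflammation they take on an alternative state with arginase and the eotaxin and CCL17 chemokines. IL-25 is a cytokine that sets off type 2 inflammation in the lung, with IL-4, IL-5 and IL-13 as its effector cytokines.

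The arrays were compared with each other and with the marker genes of their labels first. Over all 18193 genes, the neutrophil-labelled replicates correlated at 0.922. Replicate 2 correlated at 0.952 with each macrophage-labelled array, whereas replicate 1 correlated with them at 0.883 and 0.888. The T2M-labelled arrays correlated at 0.892, 0.924 and 0.915 with neutrophil replicate 1, and at 0.912, 0.919 and 0.913 with neutrophil replicate 2. These are correlations across genes, which share probe set effects. The median SD between arrays of a label was 0.29 for T2M, 0.39 for neutrophils, 0.24 for eosinophils and 0.10 for macrophages on the log2 scale. The macrophage-labelled replicates correlated at 0.995, above every other pair of arrays, and whether their RNA came from separate pools was not tested, although they add to the spread that the calls rest on. The Gapdh control probe sets, which report how far amplification reached from the 3′ end of a transcript, had a log2 excess of the 3′ over the 5′ end of 3.43, 2.35 and 2.97 on T2M-labelled arrays and 2.20 and 1.45 on neutrophil-labelled arrays. All 3 T2M values thus lay above both neutrophil values. The same excess for the actin control was 0.61, -0.037 and -0.022 on T2M-labelled arrays and -0.10 and 0.034 on neutrophil-labelled arrays, and 0.54 and -0.027 on eosinophil-labelled arrays. It did not separate the labels, and T2M replicate 1 and eosinophil replicate 1 stood apart from the other arrays. The part of either control in the results below was not tested.

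The neutrophil label was not borne out by neutrophil genes. Of 25 neutrophil surface and cytosolic genes measured, 22 were highest on eosinophil-labelled arrays, 2 on T2M-labelled arrays and 1 on neutrophil-labelled arrays. Of 18 secondary and tertiary granule genes, 13 were highest on eosinophil-labelled arrays and 2 on neutrophil-labelled arrays. Of 32 monocyte and macrophage genes, by contrast, 22 were highest on the neutrophil-labelled arrays. How many of all genes were highest on each label was not counted, so these counts have no share over all genes beside them. Csf3r, the receptor of the neutrophil growth factor G-CSF, had log2 levels of 7.13, 9.64 and 8.45 on the T2M-labelled arrays, against 10.49 and 9.47 on the neutrophil-labelled arrays, and 12.001 and 12.78 on the eosinophil-labelled arrays. Adgre1, the gene of the macrophage antigen used in the sort, was at 10.91, 9.95 and 10.02 on the T2M-labelled arrays, against 9.60 and 9.72 on the neutrophil-labelled arrays. The neutrophil gate excluded cells that carry that antigen, but a gate reads surface protein and an array reads RNA. The arrays are therefore called neutrophil-labelled, and nothing below is a statement on neutrophils beyond that label. In sorted pools, fewer cells of a type and less RNA per cell cannot be told apart.

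A total of 513 of 18193 genes (2.82%) differed between T2M and neutrophil-labelled arrays at an adjusted p under 0.05, 228 higher in T2M (1.25%) and 285 lower (1.57%). A difference is always T2M minus neutrophils on the log2 scale, and "called" means past that threshold in limma's moderated test on all 9 arrays. The called genes higher in T2M differed by a median of 2.24 and up to 5.67, and those lower by a median of 1.78 and up to 3.71. Among them, 49 were higher and 7 lower by at least 3. The median of all genes was -0.03. In all 513 genes the 3 T2M values did not overlap the 2 neutrophil values, which was also so for 10.7% of all genes above and 15.1% below. The 513 were picked for differences on these same arrays, so the lack of overlap is no separate support for them. The calls rest on the spread shared with the other labels. Among the fits below that leave out 1 array, leaving out either eosinophil-labelled replicate gives the same fit, as does either macrophage-labelled replicate. A number of such fits is thus not a number of distinct checks. After quantile normalization between arrays the split turned to 293 higher and 191 lower. With the 5 arrays alone, limma called 0 genes, with 2256 at an unadjusted p under 0.05, against 2955 in the fit on 9 arrays. With the macrophage-labelled arrays left out, an alternative chosen after the data had been seen, 61 were called higher and 47 lower.

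Genes of surface receptors and enzymes led the differences toward T2M. F2r, the thrombin receptor gene, had log2 levels of 11.36, 11.15 and 11.23 on the T2M-labelled arrays, against 6.26 and 4.90 on the neutrophil-labelled arrays. The nearest values of the labels lay about 5 log2 units apart, and the difference was 5.67 (SE 0.52, adjusted p = 0.0042), or 50.8-fold. Cd55, the complement decay-accelerating factor, was at 10.31, 9.26 and 9.96 on the T2M-labelled arrays, against 5.21 and 3.39 on the neutrophil-labelled arrays (difference 5.54, SE 0.53, adjusted p = 0.00433). Both genes were called in all 9 fits that left out 1 array. Padi4, a peptidylarginine deiminase that citrullinates histones in granulocytes, was at 9.94, 10.41 and 10.65 on the T2M-labelled arrays, against 7.37 and 3.71 on the neutrophil-labelled arrays. Its neutrophil values spanned 3.66 log2 units, more than for the other 11 genes of this group, and its difference of 4.79 (SE 0.90, adjusted p = 0.0364) was called in 2 of those 9 fits.

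Further genes at the top included a transcription cofactor, an activation marker and several enzymes. Dach1, a transcription cofactor, was at 9.12, 9.86 and 9.88 on the T2M-labelled arrays, against 5.83 and 4.86 on the neutrophil-labelled arrays (difference 4.28, SE 0.39, adjusted p = 0.0042). Cd69, an early activation lectin, was at 8.72, 8.27 and 9.20 on the T2M-labelled arrays, against 3.94 and 5.02 on the neutrophil-labelled arrays (difference 4.25, SE 0.38, adjusted p = 0.0042). It stood higher still on the eosinophil-labelled arrays, at 9.97 and 9.69. Naaladl1, a peptidase gene, was at 7.39, 9.73 and 8.77 on the T2M-labelled arrays, against 4.32 and 3.86 on the neutrophil-labelled arrays (difference 4.54), with T2M replicates spread over more than 2 log2 units and both neutrophil values far below them. Acpp, an acid phosphatase gene, was at 9.50, 9.99 and 9.80 on the T2M-labelled arrays, against 5.998 and 5.44 on the neutrophil-labelled arrays (difference 4.04), and here both labels were tight. Ctla2a, a relative of cathepsin inhibitors, was at 10.15, 9.98 and 10.37 on the T2M-labelled arrays, against 5.22 and 6.61 on the neutrophil-labelled arrays (difference 4.25), though its probe set may also measure its close relative Ctla2b. Fmo1, a flavin monooxygenase, and Gcnt1, which branches O-glycans, differed by 3.98 and 3.97. Ccr3 and Gata1 complete the 12 and are described with the eosinophil genes. These 12 genes were picked for large called differences on these same arrays, so leaving out 1 neutrophil-labelled array is no separate test of them. Without neutrophil replicate 1 the Fmo1 difference was 3.78 and without replicate 2 it was 4.19, and its call did not hold in either fit.

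**Figure D1:**
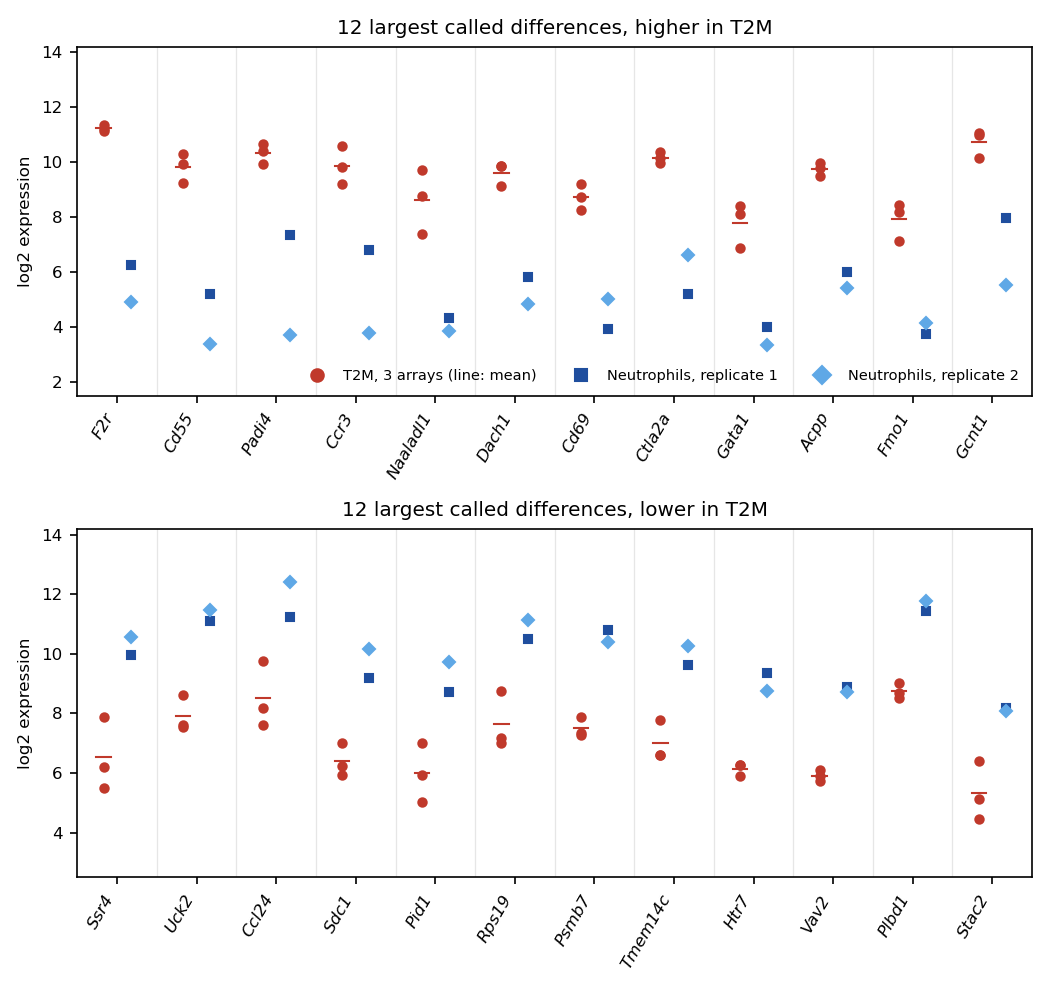
Log2 levels on each array of the 12 genes called with the largest differences higher in T2M (top) and lower in T2M (bottom), with the 3 T2M arrays left of the 2 neutrophil-labelled arrays of each gene and the neutrophil replicates as separate symbols. The genes drawn were picked among those without overlap of the labels, and Padi4 has neutrophil values 3.66 log2 units apart.

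Toward the neutrophil-labelled arrays, the leading genes included an eotaxin, a syndecan, a serotonin receptor and components of protein turnover. Plbd1, a phospholipase B-like gene, had log2 levels of 8.51, 8.68 and 9.04 on the T2M-labelled arrays, against 11.45 and 11.77 on the neutrophil-labelled arrays, a difference of -2.87 (SE 0.26, adjusted p = 0.0042). Psmb7, a subunit of the proteasome core, was at 7.28, 7.35 and 7.89 on the T2M-labelled arrays, against 10.80 and 10.38 on the neutrophil-labelled arrays (difference -3.09, SE 0.32, adjusted p = 0.00598). In both genes the replicates of each label lay within 0.7 log2 units, and both were called in all 9 fits that left out 1 array. Htr7, a serotonin receptor gene, was at 5.90, 6.26 and 6.27 on the T2M-labelled arrays, against 9.35 and 8.77 on the neutrophil-labelled arrays (difference -2.92, SE 0.29, adjusted p = 0.00492), and Sdc1, which encodes syndecan 1, was at 5.95, 6.24 and 7.02 on the T2M-labelled arrays, against 9.17 and 10.15 on the neutrophil-labelled arrays (difference -3.26, SE 0.42, adjusted p = 0.0117). Their other probe sets differed by -0.90 for Htr7 and -2.31 to -0.72 for Sdc1. Both genes stood lower on every T2M, eosinophil- and macrophage-labelled array than on either neutrophil-labelled array. Uck2, a uridine-cytidine kinase, was at 7.53, 8.63 and 7.62 on the T2M-labelled arrays, against 11.09 and 11.49 on the neutrophil-labelled arrays (difference -3.36), and its other 5 probe sets differed by -2.51 to -0.48.

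Some of the differences toward the neutrophil-labelled arrays depended on the probe set or on a replicate. Ccl24, the gene of eotaxin 2, was at 7.60, 9.77 and 8.17 on the T2M-labelled arrays, against 11.24 and 12.42 on the neutrophil-labelled arrays, a difference of -3.32 (SE 0.65, adjusted p = 0.0402) that was called in 2 of the 9 fits. T2M replicate 2 stood closest to the neutrophil values there. Ssr4, of the translocon-associated complex, had the largest difference of -3.71, but its other 2 probe sets differed by 0.02 and 0.62. Vav2 differed by -2.90, and its other probe sets by -0.35 and 0.02. The remaining genes of the 12 were Pid1 (-3.23, other probe sets -0.96 and -0.48), the ribosomal protein gene Rps19 (-3.18), Tmem14c (-2.95), which acts in mitochondrial porphyrin transport, and Stac2 (-2.79). Of the 12, 6 were also called with either neutrophil-labelled array left out, beside 0.572% of all genes called lower that way. The 12 were picked for large called differences on these same arrays, and all genes were not, so the shares cannot be compared. Leaving out either neutrophil-labelled array is thus no separate test of the 12.

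The neutrophil-labelled arrays gave unlike numbers of calls when taken 1 at a time. Against replicate 1 alone, with the spread of the other labels, 369 genes were higher and 298 lower in T2M, and against replicate 2 alone 305 were higher and 592 lower. A total of 202 genes (1.11%) were called in both of these and with both arrays, 98 higher and 104 lower. For 787 genes the 2 neutrophil values differed by more than 2 log2 units, and 8 of these were called. Slc17a6, a vesicular glutamate transporter gene, was at 2.80, 2.58 and 3.68 on the T2M-labelled arrays, against 8.39 and 2.31 on the neutrophil-labelled arrays. The value of neutrophil replicate 1 stood alone, and all other arrays of both labels lay below 4. Prg4, the lubricin gene, was at 8.82, 10.57 and 9.01 on the T2M-labelled arrays, against 10.65 and 5.04 on the neutrophil-labelled arrays, so that only replicate 2 lay below the T2M values. Fbp1, an enzyme of gluconeogenesis, was at 10.17, 7.68 and 8.43 on the T2M-labelled arrays, against 5.28 and 10.11 on the neutrophil-labelled arrays, with the order of the replicates turned round. Akr1c18, a hydroxysteroid dehydrogenase, was at 5.37, 4.93 and 4.08 on the T2M-labelled arrays, against 3.69 and 8.27 on the neutrophil-labelled arrays, and there neutrophil replicate 2 lay above all T2M values and replicate 1 below them. None of these 4 genes was called (adjusted p = 0.5 for Slc17a6, 0.672 for Prg4, 0.78 for Fbp1 and 0.704 for Akr1c18).

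**Figure D2:**
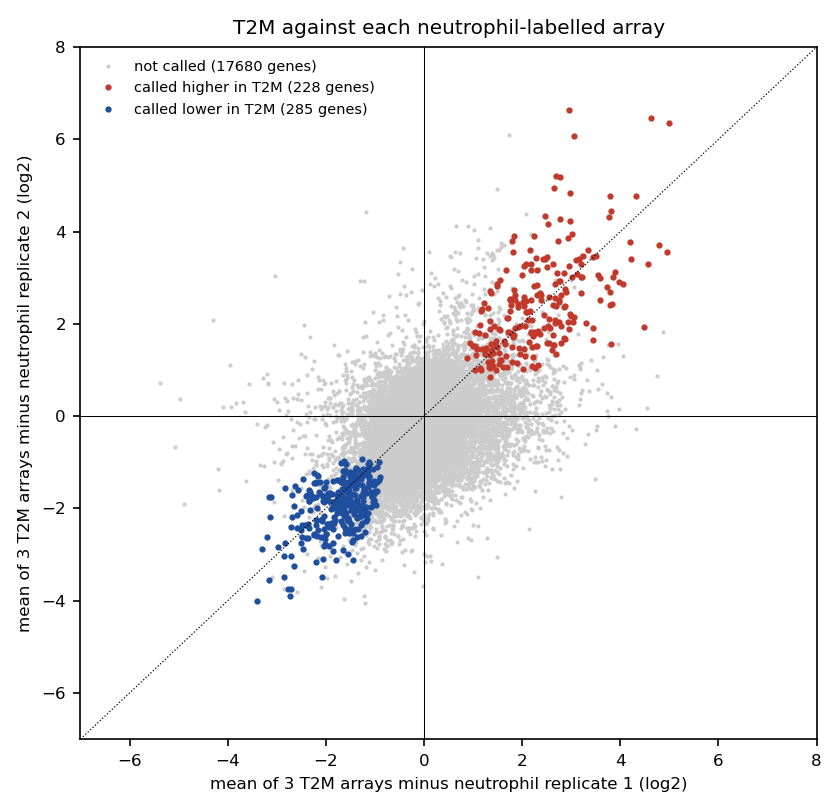
Mean of the 3 T2M arrays minus neutrophil replicate 1 (x axis) and minus replicate 2 (y axis) for each gene, in log2 units, with the 228 genes called higher and the 285 called lower marked. Both axes contain the same T2M mean, and the distance of a point from the diagonal is the difference between the 2 neutrophil-labelled arrays.

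Of 14 eosinophil genes measured, 5 were called higher in T2M, Ccr3, Gata1, P2ry14, Epx and Prg3, 0 were called lower and 9 were not called, beside 1.25% of all genes called higher. In 10 of 14 all T2M values lay above both neutrophil values, and in 2 below, beside 10.7% and 15.1% of all genes. The median difference was 2.29, against -0.03 for all genes, and 1.64 against neutrophil replicate 1 and 2.98 against replicate 2. The median level of the list was 8.90, 9.31 and 9.44 on the T2M-labelled arrays and 7.48 and 5.31 on the neutrophil-labelled arrays, so neutrophil replicate 1 lay between replicate 2 and the T2M-labelled arrays. Ear1, Ear2, Ear6 and Cebpe, also on the list, were not analysed here.

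These windows of DNA upstream of 3 of the 5 called eosinophil genes are shown because 1 of the 5, Gata1, encodes a factor that binds GATA motifs. The 5 genes share a direction because they were taken as those called higher, and their order among the replicates of a label was not the same. Each is the 250 bases before the start site in RefSeq (GRCm38.p6, from a different strain than the BALB/c mice used), written 5′ to 3′ on the gene's strand, with matches to AGATAA or TGATAA on either strand (read on the other strand as TTATCT or TTATCA) in capitals.
Ccr3, chr9:124021721-124021970, plus strand: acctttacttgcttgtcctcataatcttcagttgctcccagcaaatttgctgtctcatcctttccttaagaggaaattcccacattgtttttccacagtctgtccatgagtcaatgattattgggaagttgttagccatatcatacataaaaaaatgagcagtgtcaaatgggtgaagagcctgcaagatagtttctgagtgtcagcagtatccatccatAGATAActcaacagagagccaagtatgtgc
Prg3, chr2:84987965-84988214, plus strand: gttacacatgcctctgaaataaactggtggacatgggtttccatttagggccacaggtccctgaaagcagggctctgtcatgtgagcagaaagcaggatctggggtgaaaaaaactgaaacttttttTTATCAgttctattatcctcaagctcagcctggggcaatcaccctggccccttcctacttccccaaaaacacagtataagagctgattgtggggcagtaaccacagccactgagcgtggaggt
Gata1, chrX:7967911-7968160, minus strand: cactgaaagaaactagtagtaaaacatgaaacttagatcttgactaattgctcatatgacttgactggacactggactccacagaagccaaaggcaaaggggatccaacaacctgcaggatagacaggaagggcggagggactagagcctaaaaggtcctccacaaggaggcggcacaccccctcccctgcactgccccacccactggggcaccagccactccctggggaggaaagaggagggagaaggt
The match for Ccr3 began 30 bases before the start site and that for Prg3 123 bases before it, whereas the Gata1 window held none. In all, 4 of the 8 windows annotated for the 5 genes held a match (P2ry14 has several start sites, and the Epx window had none), against 16.6% of 32851 RefSeq windows of this length. A match is a string of letters and not a binding site, and nothing is drawn from these counts.

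Ccr3, the receptor of the eotaxins, had log2 levels of 10.58, 9.20 and 9.82 on the T2M-labelled arrays, against 6.81 and 3.79 on the neutrophil-labelled arrays (difference 4.57, SE 0.79, adjusted p = 0.0269). The T2M values lay above both neutrophil values, which were themselves 3.02 apart. Gata1 was at 6.87, 8.39 and 8.12 on the T2M-labelled arrays, against 3.99 and 3.35 on the neutrophil-labelled arrays (difference 4.12, SE 0.45, adjusted p = 0.00701), with both neutrophil values low, and the call held in all 9 fits that left out 1 array. P2ry14, a receptor of UDP-glucose, was at 10.54, 9.87 and 10.45 on the T2M-labelled arrays, against 6.43 and 7.28 on the neutrophil-labelled arrays (difference 3.43, SE 0.67, adjusted p = 0.0394). Epx, eosinophil peroxidase, was at 7.01, 7.53 and 7.33 on the T2M-labelled arrays, against 5.75 and 4.34 on the neutrophil-labelled arrays (difference 2.25, SE 0.39, adjusted p = 0.0269). Prg3, a relative of major basic protein, was at 5.82, 6.05 and 7.38 on the T2M-labelled arrays, against 4.56 and 3.79 on the neutrophil-labelled arrays, and its difference of 2.24 (adjusted p = 0.0455) was called in 1 of the 9 fits. Major basic protein itself, Prg2, was at 7.72, 10.69 and 11.22 on the T2M-labelled arrays, against 8.14 and 3.79 on the neutrophil-labelled arrays. Here T2M replicate 1 fell below neutrophil replicate 1, and the difference of 3.91 (SE 1.31) was not called (adjusted p = 0.176). Siglecf, the sialic acid lectin of eosinophils and alveolar macrophages, was at 11.35, 10.13 and 10.41 on the T2M-labelled arrays, against 8.55 and 6.25 on the neutrophil-labelled arrays without overlap (difference 3.23, adjusted p = 0.0534). Alox15, a lipoxygenase found in eosinophils and alternatively activated macrophages, was at 12.72, 12.97 and 12.95 on the T2M-labelled arrays, against 11.96 and 11.57 on the neutrophil-labelled arrays (difference 1.11, adjusted p = 0.321), high under both labels. Rnase2a, an eosinophil-associated ribonuclease, was lower in T2M without overlap but not called, at 12.72, 12.28 and 11.12 on the T2M-labelled arrays, against 12.91 and 12.90 on the neutrophil-labelled arrays (adjusted p = 0.394). The lowest difference of the list, in another gene that was not called, was -1.44.

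Neutrophil genes were counted beside all genes, of which 1.25% were called higher and 1.57% lower. Of 25 surface and cytosolic genes, Padi4 and Slc2a3 were called higher in T2M, 0 lower and 23 were not called, with a median difference of 0.56. All T2M values lay above both neutrophil values in 9 of 25 and below them in 2, beside 10.7% and 15.1% of all genes. In limma's test 12 of the 25 had an unadjusted p under 0.05, beside 2955 of all 18193 genes. Slc2a3, a glucose transporter gene, was at 10.82, 10.72 and 11.34 on the T2M-labelled arrays, against 7.42 and 7.89 on the neutrophil-labelled arrays (difference 3.31, SE 0.29, adjusted p = 0.0042), with no more than 1 log2 unit between replicates of a label. S100a8, an antimicrobial calcium-binding protein, was at 11.90, 12.19 and 11.68 on the T2M-labelled arrays, against 12.84 and 9.88 on the neutrophil-labelled arrays. S100a9, its partner, was at 10.49, 12.65 and 12.41 on the T2M-labelled arrays, against 13.58 and 11.30 on the neutrophil-labelled arrays. Neutrophil replicate 1 thus exceeded all T2M arrays in both genes, while replicate 2 lay below all T2M arrays for S100a8 and among them for S100a9. The differences of 0.56 and -0.59 were not called (adjusted p = 0.864 and 0.866).

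Granule genes of neutrophils gave few calls, as did all genes (1.25% called higher and 1.57% lower). Of 9 primary granule genes, Kit was called higher (2.08, SE 0.37, adjusted p = 0.0289; other probe set 0.38), a growth factor receptor of progenitors and mast cells listed there for immature cells, while the other 8 were not called. Mpo, myeloperoxidase, was at 4.58, 4.91 and 4.84 on the T2M-labelled arrays, against 5.08 and 4.83 on the neutrophil-labelled arrays, and Elane, neutrophil elastase, at 3.81, 3.88 and 3.85 on the T2M-labelled arrays, against 4.36 and 4.03 on the neutrophil-labelled arrays. Neither was called, with differences of -0.18 (Mpo) and -0.35 (Elane). Of 18 secondary and tertiary granule genes, Olfm4, olfactomedin 4, was called higher, at 8.41, 6.76 and 7.12 on the T2M-labelled arrays, against 5.19 and 3.52 on the neutrophil-labelled arrays (difference 3.08, SE 0.58, adjusted p = 0.0365), and 17 were not called. Lcn2, a siderophore-binding lipocalin, was at 7.51, 7.99 and 7.87 on the T2M-labelled arrays, against 7.83 and 6.59 on the neutrophil-labelled arrays, and at 12.18 and 12.63 on eosinophil-labelled arrays. Mmp8, neutrophil collagenase, was at 5.52, 6.90 and 7.59 on the T2M-labelled arrays, against 7.78 and 7.94 on the neutrophil-labelled arrays, lower in T2M without overlap but not called (difference -1.19, adjusted p = 0.306).

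**Figure D3:**
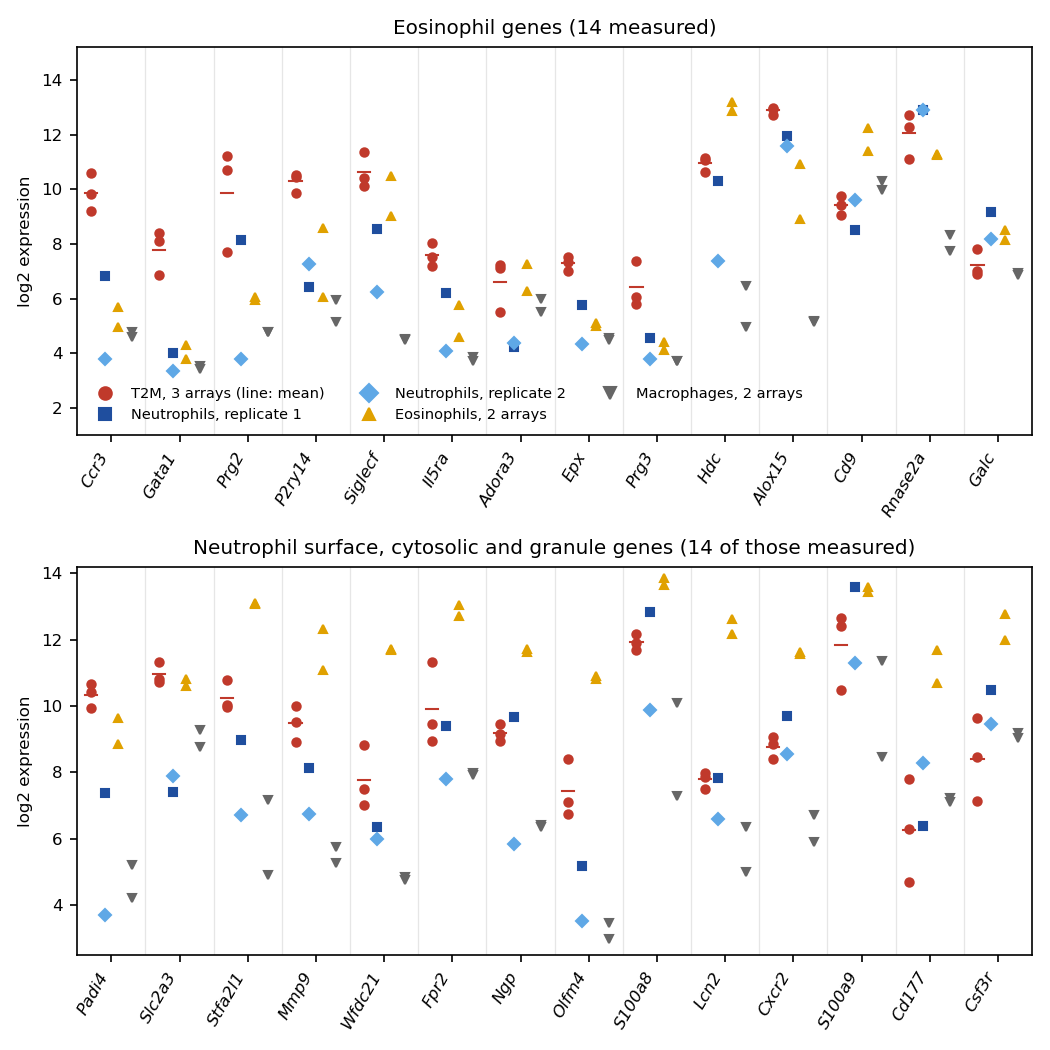
Log2 levels on all 9 arrays of the 14 eosinophil genes measured (top) and of 14 of the neutrophil surface, cytosolic and granule genes measured (bottom), T2M first and the other labels after it, with lines at the T2M means and the neutrophil replicates as separate symbols. T2M arrays stand highest for Ccr3, Gata1 and P2ry14, and eosinophil-labelled arrays for Csf3r and Lcn2.

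Il13 was the 1 type 2 cytokine gene of 11 called, beside 2.82% of all genes called in either direction. Its log2 levels were 6.16, 6.69 and 6.02 on the T2M-labelled arrays, against 5.05 and 4.87 on the neutrophil-labelled arrays, without overlap (difference 1.33, SE 0.26, adjusted p = 0.0386), and the call held in 0 of the 9 fits that left out 1 array. Il4, the reporter's gene and thus part of the sort, was at 7.69, 9.80 and 8.36 on the T2M-labelled arrays, against 6.43 and 4.67 on the neutrophil-labelled arrays. Its T2M values lay above both neutrophil values, and the difference of 3.07 (SE 0.66) fell just short of the threshold (adjusted p = 0.0512), at 2.18 against neutrophil replicate 1 and 3.95 against replicate 2. Il5 was at 7.45, 4.90 and 6.81 on the T2M-labelled arrays, against 5.36 and 4.95 on the neutrophil-labelled arrays, with T2M replicate 2 under both neutrophil values (adjusted p = 0.405). Il6, an inflammatory cytokine, was at 10.63, 10.06 and 9.73 on the T2M-labelled arrays, against 8.24 and 10.19 on the neutrophil-labelled arrays, and Csf2, the gene of GM-CSF, at 7.01, 6.15 and 6.25 on the T2M-labelled arrays, against 7.71 and 5.09 on the neutrophil-labelled arrays. Neutrophil replicates lay on both sides of the T2M values for Csf2. The alarmin gene Il33 was high on T2M replicate 1 alone, at 8.95, 6.13 and 5.73 on the T2M-labelled arrays, against 4.47 and 6.06 on the neutrophil-labelled arrays (adjusted p = 0.426). The other 5 genes of the list were not called, with differences of -0.44 (Tslp) to 0.50 (Il3).

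Of the 8 genes behind the gates that were measured, Il4 included, limma called 0. At an unadjusted p under 0.05 there were 5, beside 2955 of all 18193 genes. Ly6g, Ly6c1 and Ly6c2 were not analysed here. Il5ra, whose surface protein and not its RNA was used to exclude cells from both gates, was at 8.05, 7.18 and 7.52 on the T2M-labelled arrays, against 6.19 and 4.08 on the neutrophil-labelled arrays (difference 2.45, adjusted p = 0.0794), with all T2M values above both neutrophil values. Itgam, the gene of CD11b, was at 8.34, 10.40 and 9.72 on the T2M-labelled arrays, against 9.35 and 9.69 on the neutrophil-labelled arrays, overlapping (difference -0.03). The MHC class II genes H2-Aa, H2-Ab1 and H2-Eb1 and the invariant chain gene Cd74 differed by -1.41 (H2-Eb1) to -1.08 (H2-Aa) in the probe sets used. The other 2 probe sets of H2-Ab1 differed by -4.18 and -3.85, and the other 3 of H2-Aa by -3.14 to 0.06. With the most variable probe set of each gene the adjusted p was 0.0605 for H2-Ab1 and 0.175 for H2-Aa. H2-Eb1 was at 9.95, 11.93 and 10.995 on the T2M-labelled arrays, against 11.87 and 12.87 on the neutrophil-labelled arrays (adjusted p = 0.231), so that T2M replicate 2 lay just above neutrophil replicate 1. Of 18 genes for receptors and signalling of type 2 cytokines, limma called 0 (2 at an unadjusted p under 0.05, beside 2955 of all 18193 genes). The IL-4 receptor gene Il4ra was at 7.78, 8.26 and 8.37 on the T2M-labelled arrays, against 8.84 and 9.93 on the neutrophil-labelled arrays (difference -1.25, adjusted p = 0.163). Il17rb, a receptor subunit for the IL-25 that was given, was at 6.40, 6.81 and 6.11 on the T2M-labelled arrays, against 6.29 and 5.71 on the neutrophil-labelled arrays (adjusted p = 0.556).

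**Figure D4:**
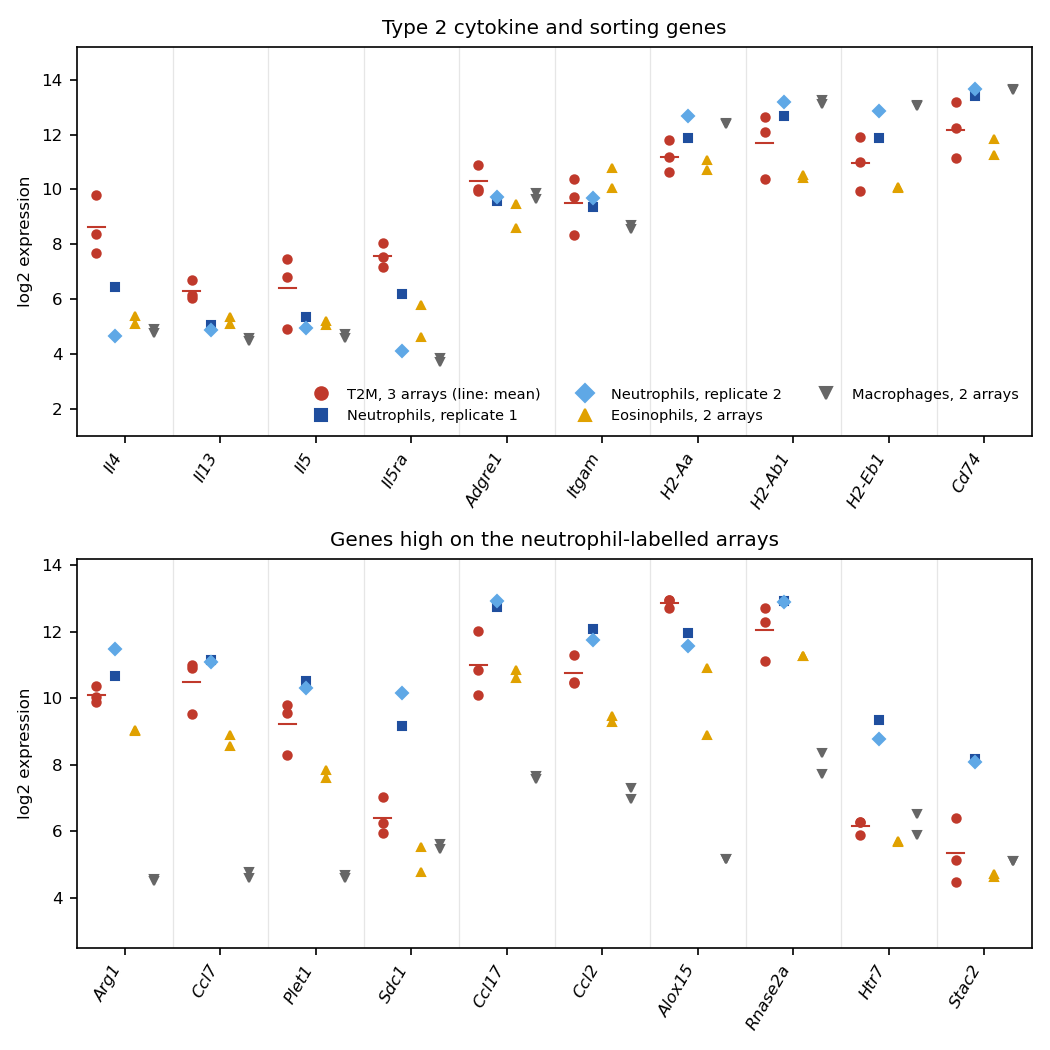
Log2 levels on all 9 arrays of the type 2 cytokine and sorting genes (top) and of genes that stood high on the neutrophil-labelled arrays and were chosen after their values had been seen (bottom), T2M first. Il13 and the sorting genes Il4, Il5ra and Adgre1 lie higher on all T2M arrays than on both neutrophil-labelled arrays. Of the 8 sorting genes, 3 lie higher and 3 lower in T2M without overlap, and 0 were called. The macrophage-labelled arrays are lowest for Arg1, Alox15 and Ccl7.

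Of 32 monocyte and macrophage genes measured, 6 were called lower in T2M, 0 higher and 26 were not called, beside 1.57% of all genes called lower. The median difference was -0.79 (-0.58 against neutrophil replicate 1 and -0.96 against replicate 2). All T2M values lay below both neutrophil values in 14 of 32 and above them in 1, beside 15.1% and 10.7% of all genes. Cx3cr1, the fractalkine receptor of monocytes, was at 7.58, 7.59 and 7.68 on the T2M-labelled arrays, against 10.73 and 9.36 on the neutrophil-labelled arrays (difference -2.43, SE 0.38, adjusted p = 0.0201). Ccr2, the monocyte chemokine receptor, was at 8.85, 9.51 and 9.27 on the T2M-labelled arrays, against 11.10 and 11.54 on the neutrophil-labelled arrays (difference -2.11, SE 0.43, adjusted p = 0.0455), and its other 3 probe sets differed by -2.76 to -2.12. Apoe, apolipoprotein E, was at 6.50, 8.21 and 7.13 on the T2M-labelled arrays, against 9.47 and 10.43 on the neutrophil-labelled arrays (difference -2.67). The lysosomal glycoprotein gene Cd68 was at 10.23, 9.77 and 9.45 on the T2M-labelled arrays, against 11.49 and 11.93 on the neutrophil-labelled arrays (difference -1.89). In these 4 genes no T2M value reached a neutrophil value. Their calls depended on the replicates, however. In limma's fit without T2M replicate 3, none of the 4 was called (adjusted p = 0.0658 for Cx3cr1, 0.123 for Ccr2, 0.12 for Apoe and 0.118 for Cd68). Without T2M replicate 1, Cx3cr1 and Cd68 were called (0.0362 and 0.0359), and Ccr2 and Apoe were not (0.0815 and 0.0586). Vcan, a matrix proteoglycan of monocytes, and the cathepsin gene Ctsl differed by -2.20 and -1.38, though the other probe set of Ctsl gave 0.14. Csf1r, the receptor of macrophage colony-stimulating factor, was at 13.50, 12.61 and 12.44 on the T2M-labelled arrays, against 12.92 and 12.92 on the neutrophil-labelled arrays (difference -0.07, adjusted p = 0.966), whereas its other 2 probe sets differed by -1.96 and -0.73 (adjusted p = 0.0646 with the more variable of them in its place). Of 18 alveolar macrophage genes, the carbonic anhydrase gene Car4 was called higher in T2M (2.25, SE 0.36, adjusted p = 0.0226) and 17 were not called, beside 1.25% of all genes called higher.

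Alternative activation and antigen presentation genes had few calls, each of them lower in T2M. Of all genes, 1.57% were called lower and 1.25% higher. Of 28 alternative activation genes, Ccl24 and the transcription factor gene Irf4 were called lower, 0 higher and 26 not called (median -0.46). Irf4 was at 7.66, 8.33 and 7.88 on the T2M-labelled arrays, against 9.19 and 9.53 on the neutrophil-labelled arrays (difference -1.41, SE 0.26, adjusted p = 0.0337). The resistin-like gene Retnla was at 13.14, 13.46 and 13.02 on the T2M-labelled arrays, against 13.29 and 13.23 on the neutrophil-labelled arrays, all 5 within 0.5 log2 units of each other (difference -0.06). Arg1, arginase 1, was at 10.02, 10.38 and 9.88 on the T2M-labelled arrays, against 10.67 and 11.47 on the neutrophil-labelled arrays, lower in T2M without overlap but not called (difference -0.97, adjusted p = 0.125). Chil3, a chitinase-like protein, overlapped between the labels (difference 0.34, adjusted p = 0.67). Of 28 antigen presentation and dendritic cell genes, Irf4 and Irf8 were called lower, 0 higher and 26 not called (median -0.84, at -0.51 against neutrophil replicate 1 and -1.46 against replicate 2). Irf8, a factor of monocyte and dendritic cell development, was at 6.59, 6.65 and 7.53 on the T2M-labelled arrays, against 8.80 and 9.27 on the neutrophil-labelled arrays (difference -2.11, SE 0.35, adjusted p = 0.0256). Ciita, the master regulator of MHC class II, was at 5.33, 6.91 and 6.23 on the T2M-labelled arrays, against 7.65 and 9.73 on the neutrophil-labelled arrays. Neutrophil replicate 2 stood 2.08 log2 units above replicate 1 there, and the difference of -2.53 was not called (adjusted p = 0.075).

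Chemokine and inflammatory genes gave few calls, as did all genes (1.25% called higher and 1.57% lower). Of 31 chemokine genes only Ccl24 was called, lower in T2M, and the list's median was 0.07. The monocyte attractant gene Ccl2 was at 10.44, 11.31 and 10.49 on the T2M-labelled arrays, against 12.07 and 11.74 on the neutrophil-labelled arrays, lower in T2M without overlap but not called (adjusted p = 0.0976). Ccl17, a ligand of CCR4, was at 10.10, 12.03 and 10.86 on the T2M-labelled arrays, against 12.75 and 12.93 on the neutrophil-labelled arrays (adjusted p = 0.0926). Cxcl15, an epithelial chemokine of the lung, was at 11.33, 10.79 and 10.33 on the T2M-labelled arrays, against 9.47 and 6.75 on the neutrophil-labelled arrays, higher in T2M but not called (adjusted p = 0.111). Of 24 receptor genes, Ccr3 was called higher and Cx3cr1 and Ccr2 lower. Of 23 inflammatory cytokine genes, the interleukin 1 genes were called in opposite directions. Il1a was at 10.01, 10.38 and 9.99 on the T2M-labelled arrays, against 8.36 and 7.60 on the neutrophil-labelled arrays (difference 2.14, SE 0.36, adjusted p = 0.0259), while Il1b was at 11.58, 11.54 and 11.62 on the T2M-labelled arrays, against 12.49 and 12.58 on the neutrophil-labelled arrays (difference -0.96, SE 0.20, adjusted p = 0.0457). The Il1b values were tight within each label, and its call held in 0 of the 9 fits that left out 1 array. Of 25 lipid mediator genes limma called 0 (5 at an unadjusted p under 0.05, beside 2955 of all 18193 genes). Alox5, 5-lipoxygenase, was at 9.90, 10.06 and 10.37 on the T2M-labelled arrays, against 9.47 and 7.81 on the neutrophil-labelled arrays (adjusted p = 0.137).

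Of 28 interferon-stimulated genes measured, Ifi44l, Usp18 and Ifi27l2a were called lower, 0 higher and 25 not called, beside 1.57% of all genes called lower. The median was -0.60, and the T2M values lay below both neutrophil values in 13 of 28 and above in 1, beside the same 15.1% and 10.7% of all genes. Ifi44l, a gene of the interferon response, was at 4.49, 4.55 and 4.08 on the T2M-labelled arrays, against 6.39 and 7.04 on the neutrophil-labelled arrays (difference -2.34, SE 0.28, adjusted p = 0.0103). The T2M values were all below 5 and the neutrophil values above 6, and the call held in all 9 fits. Usp18, which removes the ubiquitin-like modifier ISG15, was at 5.02, 5.32 and 4.69 on the T2M-labelled arrays, against 6.96 and 7.35 on the neutrophil-labelled arrays (difference -2.15, SE 0.35, adjusted p = 0.0238). Irf7, a transcription factor of that response, was at 6.74, 6.97 and 6.92 on the T2M-labelled arrays, against 8.50 and 8.53 on the neutrophil-labelled arrays, lower without overlap but not called (adjusted p = 0.0969).

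Genes of protein synthesis, protein breakdown and respiration were called in 1 direction, lower in T2M, and most were not called. Of 29 proteasome genes, 4 were called lower in T2M and 0 higher (median -1.19), of 32 respiratory chain genes 4 lower and 0 higher (median -0.80), and of 22 cytosolic ribosomal protein genes 2 lower and 0 higher (median -0.75), beside 1.57% of all genes called lower. T2M values lay below both neutrophil values in 14 of 29, 18 of 32 and 15 of 22 of them, and above in 0, beside 15.1% and 10.7% of all genes. The gap was wider against neutrophil replicate 2 in each list: the proteasome median was -0.51 against replicate 1 and -1.44 against replicate 2. Proteasome list medians were 8.98, 9.24 and 9.09 on T2M-labelled arrays and 9.99 and 10.47 on neutrophil-labelled arrays. They were 8.95 and 8.80 on eosinophil-labelled arrays, whose Gapdh excess was 2.41 and 1.085, and 10.22 and 10.05 on macrophage-labelled arrays, whose Gapdh excess was 1.02 and 1.20. The T2M-labelled arrays thus had lower medians and a higher excess than the neutrophil-labelled arrays. Eosinophil replicate 1 likewise had a low median (8.95) beside a high excess (2.41), and eosinophil replicate 2 had the lowest median (8.80) beside an excess of 1.085. Between T2M and neutrophils, label and control cannot be told apart. The part of the control in the difference was not tested.

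Psma7, a core subunit, was at 9.49, 10.36 and 10.10 on the T2M-labelled arrays, against 11.95 and 11.72 on the neutrophil-labelled arrays (difference -1.85, SE 0.29, adjusted p = 0.0209), and Psmc5, an ATPase of the regulatory particle, at 6.84, 7.40 and 7.40 on the T2M-labelled arrays, against 8.83 and 9.75 on the neutrophil-labelled arrays (difference -2.08, SE 0.32, adjusted p = 0.0198). With Psmb7 above and Psmc1 (-1.19, other probe set 0.07), they were the 4 proteasome genes called. Cycs, cytochrome c, was at 8.91, 8.98 and 9.49 on the T2M-labelled arrays, against 10.96 and 11.12 on the neutrophil-labelled arrays (difference -1.91, SE 0.26, adjusted p = 0.0117), and its other 3 probe sets differed by -0.76 to 0.09. Atp5b, a subunit of ATP synthase, was at 9.56, 9.84 and 9.17 on the T2M-labelled arrays, against 10.92 and 11.97 on the neutrophil-labelled arrays (difference -1.92), and Cyc1 and Ndufs3 were called at -1.35 and -1.63. Rpl11, a protein of the large ribosomal subunit, was at 10.77, 11.40 and 10.98 on the T2M-labelled arrays, against 12.44 and 12.60 on the neutrophil-labelled arrays (difference -1.47, SE 0.31, adjusted p = 0.0466). Rps9 had the widest difference of the ribosomal genes, -3.20, but its T2M values of 6.91, 10.85 and 10.10 were too scattered for a call (adjusted p = 0.203). Of 32 lysosome genes, the sialidase gene Neu1 was called higher (1.70, SE 0.22, adjusted p = 0.0117, other 2 probe sets 0.19 and 0.80) and Cd68 and Ctsl lower, with a median of -0.68. These calls and those of the cell cycle genes stand beside 1.25% of all genes called higher and 1.57% lower. Of 33 cell cycle genes, Top2a, a topoisomerase, was called lower (-1.36, SE 0.28, adjusted p = 0.0459), while the other probe sets of Top2a gave -0.11 and 0.06. Mki67, the proliferation antigen, was at 9.96, 9.84 and 9.89 on the T2M-labelled arrays, against 9.77 and 9.90 on the neutrophil-labelled arrays, with no gap between the labels (difference 0.06).

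**Figure D5:**
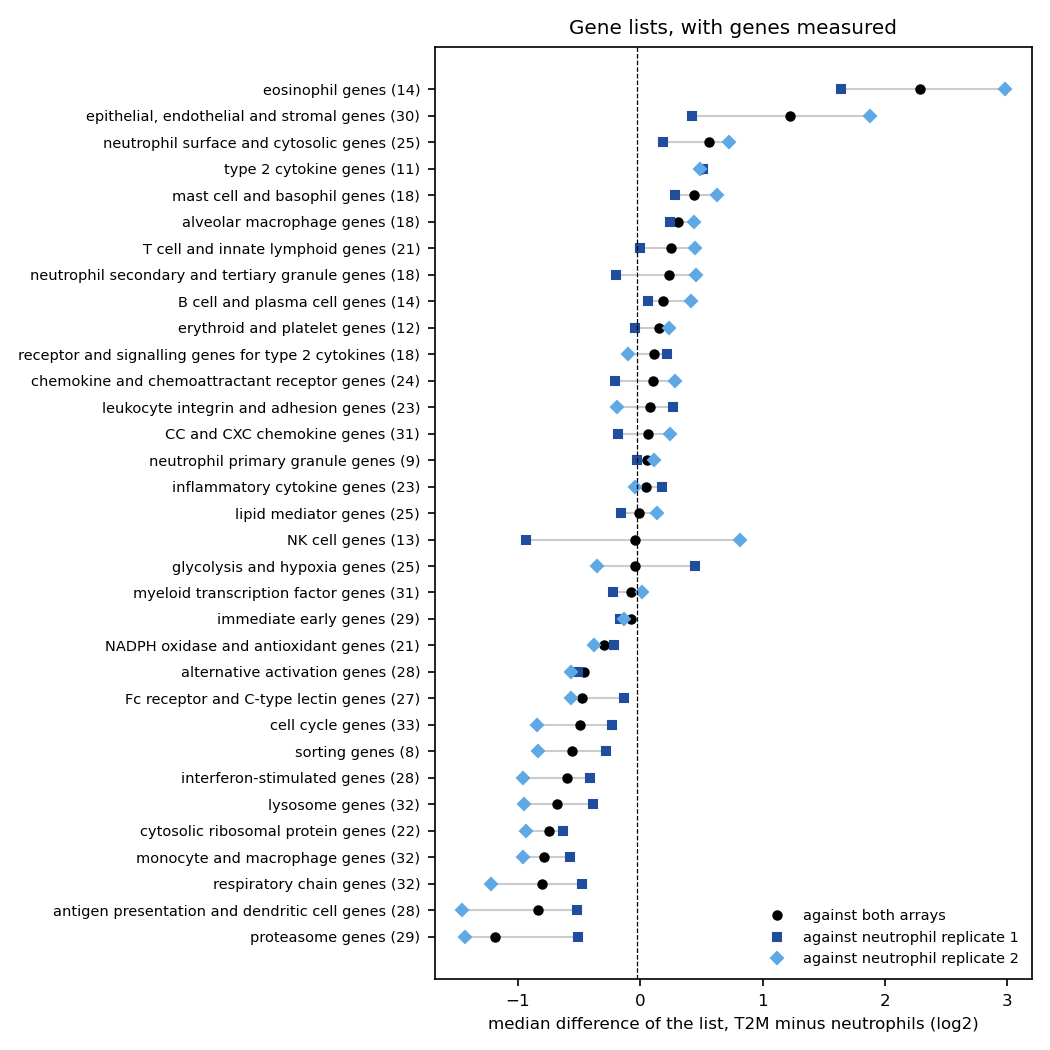
Median log2 difference, T2M minus neutrophils, of each gene list over its measured members, with the medians against neutrophil replicate 1 and replicate 2 as separate symbols. Eosinophil genes have the highest median, at 2.29, and proteasome genes the lowest, at -1.19, beside -0.03 for all genes.

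Hypoxia, oxidase and regulator genes were called on both sides, beside 1.25% of all genes called higher and 1.57% lower. Of 25 glycolysis and hypoxia genes, Slc2a3, Adm and Egln3 were called higher and Pfkp lower (median -0.05). Adm, the vasodilator adrenomedullin, was at 11.82, 11.20 and 11.23 on the T2M-labelled arrays, against 8.47 and 8.16 on the neutrophil-labelled arrays (difference 3.10, SE 0.41, adjusted p = 0.0117), although its other probe set differed by 0.04. Egln3, an oxygen-sensing prolyl hydroxylase, was at 8.63, 8.78 and 9.04 on the T2M-labelled arrays, against 7.60 and 6.37 on the neutrophil-labelled arrays (difference 1.83, other probe set 0.40). Pfkp, a phosphofructokinase, was at 9.82, 9.61 and 9.46 on the T2M-labelled arrays, against 10.84 and 10.91 on the neutrophil-labelled arrays (difference -1.25, other probe sets -1.20 to -0.53). The glycolytic and hypoxia genes therefore did not move one way. Of 21 oxidase and antioxidant genes, Epx and Ncf1 were called higher. Ncf1, a cytosolic subunit of the phagocyte NADPH oxidase, was at 12.91, 12.57 and 12.97 on the T2M-labelled arrays, against 11.51 and 10.47 on the neutrophil-labelled arrays (difference 1.82, SE 0.33, adjusted p = 0.0294), and its other 2 probe sets differed by 1.39 and 2.10. Cybb, the membrane subunit, overlapped at 12.02, 11.41 and 11.31 on the T2M-labelled arrays, against 11.87 and 11.96 on the neutrophil-labelled arrays.

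Of 31 myeloid transcription factor genes, Gata1 was called higher and Runx3, Irf8, Irf4 and Nfil3 lower, with 26 not called. The lists of this paragraph stand beside 1.25% of all genes called higher and 1.57% lower. Runx3 was at 9.41, 8.68 and 8.65 on the T2M-labelled arrays, against 10.65 and 10.85 on the neutrophil-labelled arrays (difference -1.83, SE 0.28, adjusted p = 0.0184), and its other probe set gave -1.61. Nfil3 was at 10.17, 9.82 and 9.72 on the T2M-labelled arrays, against 11.15 and 11.57 on the neutrophil-labelled arrays (difference -1.46). No T2M value of either gene reached a neutrophil value. Of 29 immediate early genes, Egr3 was called higher, at 9.73, 8.89 and 9.59 on the T2M-labelled arrays, against 5.62 and 6.72 on the neutrophil-labelled arrays (difference 3.23, SE 0.46, adjusted p = 0.0153; other probe set 0.20), and 28 were not called. Of 23 integrin and adhesion genes, Emb, which encodes embigin, was called lower, at 8.49, 8.66 and 8.70 on the T2M-labelled arrays, against 10.30 and 10.90 on the neutrophil-labelled arrays (difference -1.99, SE 0.24, adjusted p = 0.0103). Of 27 Fc receptor and lectin genes, limma called 0 (12 at an unadjusted p under 0.05, beside 2955 of all 18193 genes). Fcgr4, an IgG receptor, was at 8.37, 7.69 and 6.43 on the T2M-labelled arrays, against 9.31 and 10.95 on the neutrophil-labelled arrays without overlap (difference -2.63, adjusted p = 0.0654).

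Markers of cells outside the gates differed between the labels as well. Over all genes, 1.25% were called higher and 1.57% lower. Of 30 epithelial, endothelial and stromal genes, Acta2, Krt18, Sparc and Sftpd were called higher in T2M and 0 lower, and T2M values lay above both neutrophil values in 14 and below in 0, beside 10.7% and 15.1% of all genes. The median level of the list was 8.23, 7.56 and 7.75 on T2M-labelled arrays and 7.07 and 6.07 on neutrophil-labelled arrays. Among the 4 labels, 22 of the 30 were highest on T2M, a count that was not made for all genes. Sparc, a matrix protein of stromal cells, was at 9.62, 9.36 and 9.05 on the T2M-labelled arrays, against 7.31 and 6.08 on the neutrophil-labelled arrays (difference 2.65, SE 0.43, adjusted p = 0.024), and its other 2 probe sets differed by 0.09 and 1.33. Sftpd, surfactant protein D of the lung epithelium, was at 8.17, 8.45 and 8.11 on the T2M-labelled arrays, against 6.91 and 5.54 on the neutrophil-labelled arrays (difference 2.02, SE 0.39, adjusted p = 0.0376). Acta2, smooth muscle actin, differed by 3.14, while its other 2 probe sets gave -0.31 and -0.08. Epcam, which marks epithelial cells, was at 7.37, 7.50 and 7.44 on the T2M-labelled arrays, against 6.77 and 7.999 on the neutrophil-labelled arrays (difference 0.05). The part of these genes in the other differences was not tested.

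Lymphoid and mast cell markers were largely uncalled, as were all genes, of which 1.25% were called higher and 1.57% lower. Of 18 mast cell and basophil genes, Slc18a2, a vesicular amine transporter, was called higher at 9.44, 8.57 and 9.10 on the T2M-labelled arrays, against 6.07 and 6.83 on the neutrophil-labelled arrays (difference 2.59, SE 0.38, adjusted p = 0.0176), as was Kit, and 16 were not called. The mast cell carboxypeptidase gene Cpa3 was highest on T2M replicate 1, at 7.97, 3.75 and 6.47 on the T2M-labelled arrays, against 4.54 and 3.999 on the neutrophil-labelled arrays (adjusted p = 0.443). Of 14 B cell and plasma cell genes, Bank1, a signalling scaffold of B cells, was called higher at 9.01, 8.74 and 9.46 on the T2M-labelled arrays, against 4.51 and 5.78 on the neutrophil-labelled arrays (difference 3.93, SE 0.40, adjusted p = 0.0056), and Mzb1, of plasma cells, was called lower (-1.31, SE 0.22, adjusted p = 0.0262). Of 21 T cell and innate lymphoid genes, 13 NK cell genes and 12 erythroid and platelet genes, limma called 0. At an unadjusted p under 0.05 there were 3 in each list, beside 2955 of all 18193 genes. Cd3e, of the T cell receptor complex, was at 6.83, 8.11 and 7.80 on the T2M-labelled arrays, against 6.16 and 4.94 on the neutrophil-labelled arrays without overlap (difference 2.03, adjusted p = 0.0653). Gzmb, a granzyme, was at 9.46, 8.04 and 9.19 on the T2M-labelled arrays, against 9.31 and 6.07 on the neutrophil-labelled arrays, where neutrophil replicate 1 lay among the T2M values and replicate 2 below them. The NK list had a median of -0.94 against neutrophil replicate 1 and 0.82 against replicate 2.

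The neutrophil-labelled arrays were last set against the eosinophil- and macrophage-labelled arrays, in the same fit, so that no T2M array enters the difference while the T2M arrays still enter its spread. The mean of the eosinophil- and macrophage-labelled arrays minus the neutrophil-labelled arrays equals the T2M minus neutrophil difference less the average of the T2M differences from those labels, and so tests whether the neutrophil comparison differs from the other T2M comparisons. Of 18193 genes, 321 (1.76%) were called, 167 above the neutrophil-labelled arrays (0.918%) and 154 below (0.846%). With the arrays shifted to a common median, which moved the median of all genes to -0.02, against -0.13 as deposited, 223 were called above and 133 below. This comparison shares the neutrophil-labelled arrays with the one above. Of the 28 alternative activation genes, 10 were called below the neutrophil-labelled arrays and 0 above, of 31 chemokine genes 7 below and 1 above, and of 32 monocyte and macrophage genes 6 below and 0 above. Of the 25 neutrophil surface and cytosolic genes, 0 were called below and 2 above.

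Arg1 was at 9.03 and 9.01 on eosinophil-labelled arrays and 4.56 and 4.50 on macrophage-labelled arrays, a mean of those labels of -4.29 relative to neutrophils (SE 0.27, adjusted p = 0.00208). T2M arrays lay between, at a difference of -0.97. Ccl7, a monocyte chemokine, was at 10.90, 11.002 and 9.54 on the T2M-labelled arrays, against 11.15 and 11.10 on the neutrophil-labelled arrays, 8.89 and 8.56 on eosinophil-labelled arrays and 4.76 and 4.59 on macrophage-labelled arrays (difference of those labels from neutrophils -4.42, SE 0.40, adjusted p = 0.00423). Its T2M values thus stayed near the neutrophil values, while the macrophage-labelled arrays were more than 6 log2 units below. Dcstamp, a protein needed for macrophage fusion, had log2 levels of 8.21, 7.85 and 7.60 on the T2M-labelled arrays, against 8.60 and 9.38 on the neutrophil-labelled arrays (difference of the other labels from neutrophils -3.87, SE 0.29, adjusted p = 0.00305). Mmp13, a collagenase, was at 4.57, 4.39 and 4.34 on the T2M-labelled arrays, against 6.51 and 6.71 on the neutrophil-labelled arrays, and it was called lower in T2M (-2.18, SE 0.40, adjusted p = 0.0328) as well as in the other labels (-3.51, SE 0.38, adjusted p = 0.0066). Sdc1, Htr7 and Stac2, described above, were likewise called below the neutrophil-labelled arrays in the other labels (-4.32, -3.11 and -3.25). For Alox15 the other labels differed from neutrophils by -4.23 (adjusted p = 0.00797), and T2M and neutrophil-labelled arrays were both high. Ccl7, Dcstamp, Mmp13 and the values of Arg1 and Alox15 in this paragraph were chosen after they had been seen.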

How the data were processed

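Per the submitters' processing notes, the authors used RMA, affy and limma, without a version, setting or detection call in the sources used here; the log2 values they deposited give 1 level per probe set and array. RMA pulls low levels toward a floor, which understates differences of dim genes. Of 45101 probe sets, 64 were controls and not tested. The platform table paired 34945 with a single gene, 932 with several and 9160 with no gene, and 34741 matched RefSeq (GRCm38.p6) by gene ID, with 0 symbols changed. Per gene the probe set with 1 symbol and the highest mean over 9 arrays was used (18193 genes, of which 9010 had a choice), and levels are not compared between genes.

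The moderated test of limma (version 3.58.1, R 4.3.3) compared label means in 1 fit of all 9 arrays (two-sided, Benjamini-Hochberg over all genes, called under 0.05), with 5 residual degrees of freedom, a prior of 3.26 degrees and a median standard error of 0.31 log2 units. The number of arrays limits the precision, and an exact permutation of 3 against 2 arrays cannot reach 0.05. The arrays compared, the 33 gene lists and the tests were chosen with earlier results of these data known. Named genes are the 12 largest called differences per direction without overlap, up to 5 per direction between the neutrophil-labelled replicates, all sorting and type 2 genes, and up to 4 called and 3 uncalled members per list; where others are named (Csf1r, Retnla, Mki67, Epcam, Il17rb and the genes of the last comparison), they were chosen after their values were seen. Promoter letters come from RefSeq. Figures were drawn with matplotlib 3.10.9.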

Additional observations from a re-analysis of the deposited data

How the results depend on the processing

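Counts of calls depended on the processing. For T2M minus neutrophils, leaving out either eosinophil-labelled replicate gave the same fit, and so did leaving out either macrophage-labelled replicate. A label with 1 array adds no spread, and the difference holds none of these arrays. The 9 fits that left out 1 array are therefore not all distinct, and the setting without the macrophage-labelled arrays repeats 1 of them. Of the 513 genes called between T2M and neutrophil-labelled arrays, 87 were called in all 9 fits that left out 1 array, and the count ran from 108 to 897 over those fits. It was 108 without either macrophage-labelled replicate, 897 without neutrophil replicate 1, 237 without T2M replicate 2 and 112 without T2M replicate 3. It was 0 with the 5 arrays alone, 53 with array weights (40 higher and 13 lower), 70 when a difference of at least 1.5-fold was tested, and 108 with the macrophage-labelled arrays left out, a setting chosen after seeing the data. With the replicate number as a block 43 were called, and number 3 then dropped out of the contrast, since only T2M has it. Of the 71 called genes named here, 16 were called with this block and 55 were not, among them the eosinophil genes Gata1 (adjusted p = 0.0559), Ccr3 (0.0566), Prg3 (0.0922), P2ry14 (0.103) and Epx (0.107), and Il13 (0.107). Deviations from the label mean of same-numbered arrays correlated at -0.18 and -0.14 between T2M and neutrophils for numbers 1 and 2. They correlated at 0.50 and 0.44 between T2M and eosinophils and at 0.050 and 0.0029 between T2M and macrophages. The 2 arrays of a label deviate from its mean by equal and opposite amounts, so the values for numbers 1 and 2 are not separate checks. T2M replicate 3, which has no same-numbered partner, correlated at 0.25 with eosinophil replicate 2. T2M replicate 1 and eosinophil replicate 1 also stood apart in the actin control, whose part here was not tested. The reported fit has no block, and these values do not settle whether the numbers pair the arrays. With the mean of all probe sets of a gene, the most variable probe set, a common median, quantile normalization, a trend or robust moderation, or only genes above the median level, counts stayed within 1.5 times. For eosinophil- and macrophage-labelled minus neutrophil-labelled arrays, 321 as reported, the count ran from 34 to 1362 over the fits that left out 1 array. The lowest was without macrophage replicate 2 (37 without replicate 1) and the highest without neutrophil replicate 2, and the count also moved without either eosinophil replicate (207 and 153) and without T2M replicate 2 or 3 (201 and 204). It was 21 with array weights, 52 for at least 1.5-fold and 101 with the replicate block, and a fit on the 5 arrays alone could not be made for it. The causes were not tested.

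No called gene named here changed sign under any setting run. Among genes that were not called, differences changed sign between fits that left out 1 array, with lowest and highest values of -3.48 to 1.10 for Akr1c18, -0.39 to 0.13 for Csf1r, -1.24 to 1.38 for Csf2, -0.56 to 0.67 for Epcam, -1.35 to 3.48 for Fbp1, -0.41 to 2.83 for Gzmb, -0.048 to 1.90 for Il6, -0.49 to 0.54 for Itgam, -0.038 to 1.20 for Lcn2, -0.0044 to 0.13 for Mki67, -1.18 to 4.43 for Prg4, -0.18 to 0.037 for Retnla, -0.92 to 2.04 for S100a8, -1.73 to 0.55 for S100a9 and -5.37 to 0.71 for Slc17a6. Under other settings Csf1r gave 0.0039 with quantile normalization and 0.13 with the replicate block, Csf2 -0.086 with array weights and -0.080 with quantile normalization, Itgam 0.25 and 0.12 with these settings, and Retnla 0.037 with the replicate block. Depth has no counterpart on these arrays, and without detection calls the lowest levels carry no lower bound.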
